A study of Papio anubis with 3 samples.

Results

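The domain described here is a stretch of baboon chromosome 19 with a high density of H4K20me3 peaks, from position 19668900 to 22613235 of the papAnu2 genome build. Its members were taken by position from the deposited H4K20me3 peak list: every peak on chromosome 19 between those positions. This gave 1471 of the 10000 peaks in the list, or 14.7%, and 55.9% of the 2630 peaks on chromosome 19. The limits were themselves chosen from the density of peaks in this library. The number, density, widths, gaps and folds of the members are therefore given as a description, with no test. All positions below are on chromosome 19 of papAnu2 and counted from 1, unless another chromosome is named.

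The donor was an adult baboon of the species Papio anubis, and the cells came from the subventricular zone, the layer beside the lateral ventricles where neural stem cells are kept in the adult brain. Cells were captured from dissociated fresh tissue on beads that carried antibodies to neural stem and progenitor markers such as GFAP, Nestin and Doublecortin, per the labels' protocols. The series holds 3 samples with 1 library each: H3K27me3, H4K20me3 and total H4, the last precipitated for normalization. The captured cells are a mixture, and levels of the capture markers were not analysed here. No replicate library stands behind any value below, and peaks of 1 library are not replicates of each other.

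H4K20me3 is trimethylation of lysine 20 on histone H4. It is written by the SUV420H enzymes (KMT5B and KMT5C), which are recruited by HP1 proteins bound to the heterochromatin mark H3K9me3. In mammals it is known from pericentromeric and telomeric heterochromatin, from silenced retrotransposons and from some clustered gene families. H3K27me3, the other mark of the series, is written by the Polycomb repressive complex and marks a different, facultative kind of silencing. No gene, repeat or centromere annotation of papAnu2 was used here, so the genes and repeats under the domain, and its distance to the centromere, are not given. No source used here assigns it to a zinc-finger gene cluster, and none is assigned.

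The domain was densely but unevenly filled. Its 1471 peaks lay at 499.6 per Mb over 2.94 Mb and covered 758.6 kb, or 25.8% of that length. The rest of chromosome 19 held 1159 peaks, or 24.1 per Mb, which covered 0.870% of its length. The domain makes up 5.78% of the span of chromosome 19, taken to the largest peak end (50.9 Mb), and 0.111% of the span of all chromosomes. It held 18.8% of all sequence covered by H4K20me3 peaks in the list.

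A gap of more than 50 kb lies at each limit, and a wider one, of 92.4 kb, lies inside the domain. Joining only peaks less than 50 kb apart would therefore divide it into a run of 294 peaks (19668900 to 20565126) and a run of 1177 peaks (20657491 to 22613235). The smaller run had 328.0 peaks per Mb and was covered to 14.7%, and the larger had 601.8 peaks per Mb and was covered to 32.1%. The first peak (19668900 to 19669183, fold over control 3.61) lay 52.6 kb from the nearest peak outside it (19615837 to 19616314, fold 3.98). The last peak (22612899 to 22613235, fold 3.33) lay 50.4 kb from the next one (22663625 to 22663837, fold 3.55). The surroundings were unequal on the 2 sides. The 1 Mb before the domain held 129 peaks that covered 4.51% of it, and the 1 Mb after it held 29 peaks that covered 0.807%.

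**Figure D1:**
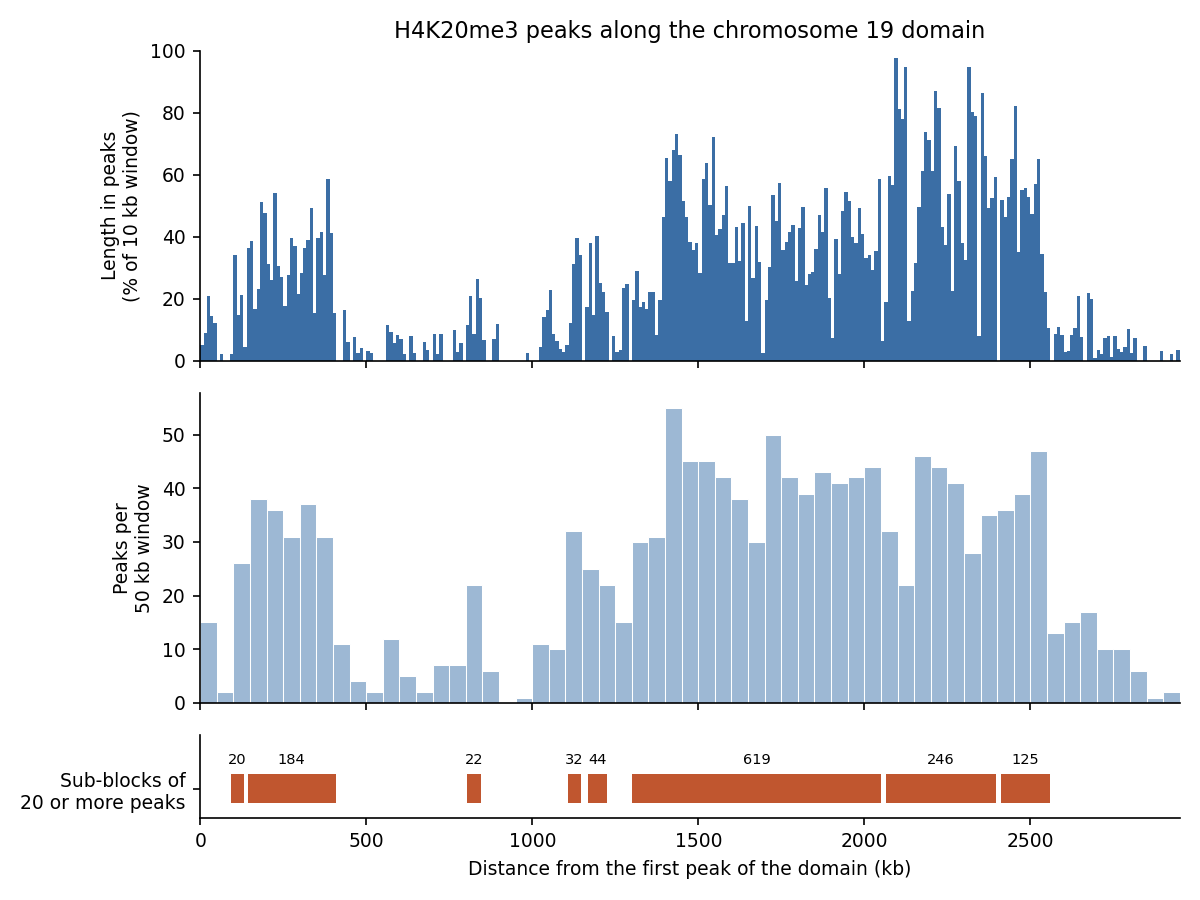
Percent of each 10 kb window covered by H4K20me3 peaks (top), peaks per 50 kb window (middle) and the 8 sub-blocks of at least 20 peaks with their numbers of peaks (bottom), against distance from the first peak in kb. A block of 184 peaks on the left and 3 adjoining blocks of 619, 246 and 125 peaks on the right stand on either side of a sparse middle.

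Along the domain, 5 zones could be told apart. From left to right these were a thin edge of 36 peaks, a block of 184 peaks, a sparse middle of 190, a core of 990 and a tapering right edge of 71. The core (20969193 to 22227202) took 42.7% of the length of the domain, 67.3% of its peaks and 74.2% of its covered sequence. Peaks covered 44.8% of the core at 787.0 per Mb. The block of 184 peaks (19811408 to 20077394) was similar in density, with 691.8 peaks per Mb, and 34.5% of it was covered. The middle (20077395 to 20969192) took 30.3% of the length but held 213 peaks per Mb and was covered to 7.81%. The left and right edges were covered to 9.85% and 5.13%.

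Windows of 50 kb, counted from the first peak, hold the same peaks that set the zones, so they repeat this profile by construction. Of the 59 windows, 8 were covered to at least 50%, 19 to between 30% and 50%, 11 to between 10% and 30%, and 21 to less than 10%. The median window held 28 peaks. The fullest windows held 55 peaks (21068900 to 21118899, 66.2% covered), 50 peaks (21368900 to 21418899, 41.1%) and 47 peaks (22168900 to 22218899, 45.2%). All 3 lay in the core. The emptiest held none (20568900 to 20618899) and 1 peak each (20618900 to 20668899 and 22518900 to 22568899). The first 2 of these lie side by side in the middle, and the last is in the right edge.

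Gaps between neighbouring peaks were mostly short, with a few long ones. The 1470 gaps had a median of 455 bp (quartiles 179 to 1120 bp) and a mean of 1487 bp. Of them, 483 (32.9%) were shorter than 250 bp and 1055 (71.8%) shorter than 1 kb. At the other end, 42 gaps of at least 10 kb (2.86%) made up 853.0 kb, or 39.0% of all the length between peaks. No gap in the whole list was shorter than 37 bp, and the smallest gap in the domain was at that limit.

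The 5 longest gaps lay outside the core, and 4 of them in the middle. The longest was 92.4 kb (20565127 to 20657490), between a peak of fold 2.33 and one of fold 4.66, and it is the only gap over 50 kb in the domain. A lone peak 249 bp wide (20657491 to 20657739) stood on its right side and was followed by a further gap of 35.3 kb. Gaps of 48.1 kb (20183302 to 20231393) and 33.9 kb (20397663 to 20431514) also fell in the middle. The gap of 41.5 kb (22517767 to 22559270) lay in the right edge. The peaks that border these 5 gaps were 213 to 431 bp wide. The longest gap inside the core was 15.1 kb.

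Splitting the domain wherever neighbours were at least 10 kb apart gave 43 sub-blocks. Of these, 8 had at least 20 peaks and together held 1292 peaks (87.8%) on 57.1% of the length. The other 35 held 179 peaks, with at most 17 each, and 12 were single peaks. The number of sub-blocks depended on the distance used, with 92 at 5 kb and 13 at 20 kb.

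The core consisted of 3 of the large sub-blocks. The first, of 619 peaks, ran for 750.4 kb from its first peak (20969193 to 20969405) to its last (21719422 to 21719634). The second, of 246 peaks, ran for 332.4 kb (first peak 21733229 to 21733467, last peak 22065129 to 22065593). The third, of 125 peaks, ran for 146.5 kb (first peak 22080699 to 22081913, last peak 22226794 to 22227202). Gaps of 13.6 kb and 15.1 kb separate the 3 blocks. The block of 184 peaks ran for 266.0 kb, from its first peak (19811408 to 19811960) to its last (20076977 to 20077394). A small neighbour of 20 peaks (first peak 19761320 to 19761532, last peak 19801003 to 19801215) preceded it.

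The middle held 3 more large sub-blocks, 40.7 to 59.4 kb long. They had 22 peaks (first 20471158 to 20471684, last 20515730 to 20515954), 32 peaks (first 20775735 to 20776005, last 20815734 to 20816397) and 44 peaks (first 20835776 to 20836766, last 20894976 to 20895188). The sub-blocks of 32 and 44 peaks had 787 and 740.6 peaks per Mb, close to the densities in the core. They were covered to 30.1% and 29.1%, below the 39.0% to 59.3% of the 3 core blocks, and their median widths were 271.5 and 306.5 bp. The middle is therefore not evenly thin. Its sub-blocks of 32 and 44 peaks were near the core in number of peaks per Mb but made of narrower peaks. The sub-block of 22 peaks was thinner, with 491.1 peaks per Mb and a median width of 337 bp. The densities count all peaks. In the sub-blocks of 32 and 44, 2 and 8 peaks had a control pileup of more than 2 times the lowest.

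**Figure D2:**
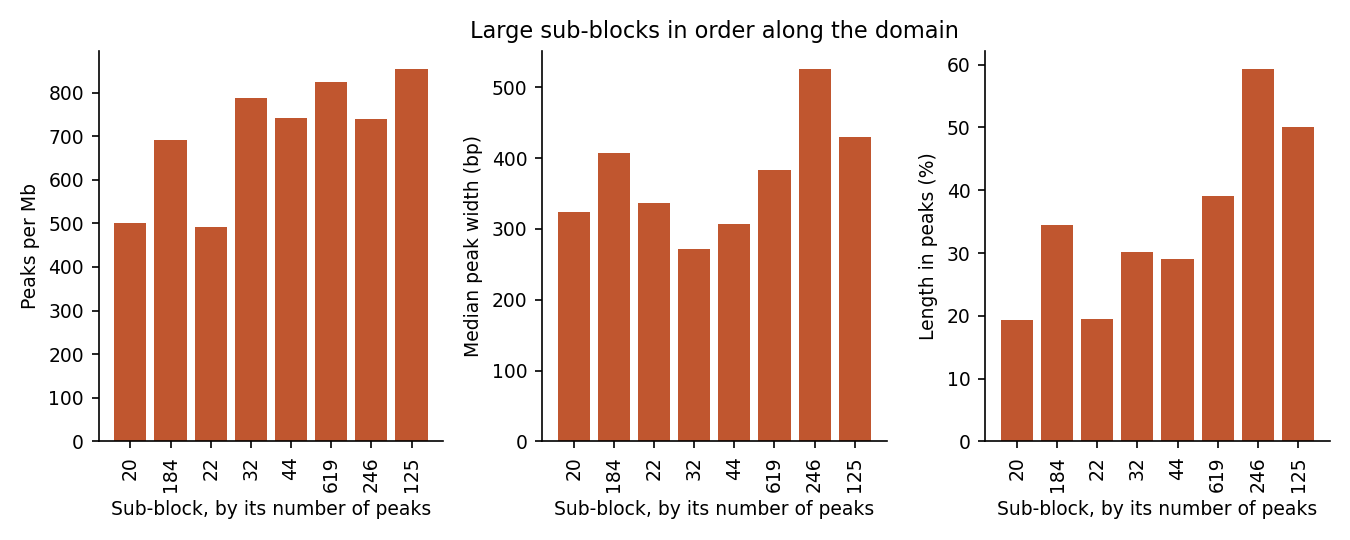
Peaks per Mb (left), median peak width in bp (centre) and percent of length covered by peaks (right) in the 8 sub-blocks with at least 20 peaks, in order along the domain and named by their number of peaks. The block of 246 peaks has fewer peaks per Mb than its neighbours of 619 and 125 but the widest peaks and the highest coverage. Bars are values of 1 library and have no error.

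The order of the sub-blocks by density differed from the order by coverage. The block of 246 peaks had 740.2 peaks per Mb, fewer than the 824.8 in the block of 619 and the 853.2 in the block of 125. Among peaks with a -log10 q of at least 5 its density (556.6 per Mb) was above that of the block of 619 (495.7) and near that of the block of 125 (559.7). The coverage of the block of 246 peaks was 59.3%, against 39.0% and 50.1% in those blocks. Its peaks were wider, with a median of 525.5 bp against 384 and 430 bp, and the gaps between them were shorter, with a median of 253 bp against 405.5 and 329.5 bp. Peaks at least 1 kb wide were 52 of its 246 (21.1%) and made up 52.7% of its covered sequence. In the block of 619 peaks, 32 (5.17%) were as wide and made up 14.7%. In the block of 125, 16 (12.8%) were as wide and made up 32.8%.

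The ends of the core differed in sharpness. At its right end, peaks covered 39.5% of the last 50 kb inside (43 peaks) and 6.13% of the first 50 kb outside (11 peaks). At its left end the first 50 kb inside were covered to 20.9% and the last 50 kb outside to 10.9%. There, coverage climbed within the core to 23.7% in the window from 21018900 and to 66.2% in the window from 21068900. The block of 184 peaks ended sharply as well, with 36.9% covered in its last 50 kb and 4.49% in the 50 kb beyond. At its start, 35.1% inside stood against 15.2% outside, where the small block of 20 peaks lies. Blocks end at gaps of at least 10 kb, so part of each fall in coverage is set by the splitting rule. These gaps were 16.1 kb at the right end of the core and 21.9 kb at the right end of the block of 184.

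Joining peaks less than 1 kb apart gave 416 stretches, of which 180 were single peaks. The longest was 38.0 kb (21084124 to 21122099), with 45 peaks over 71.1% of its length. It lies across the fullest window, in the block of 619 peaks. The next were 28.4 kb (21873086 to 21901491, 29 peaks), 26.0 kb (21842107 to 21868082, 26 peaks) and 25.1 kb (21978779 to 22003896, 18 peaks). These 3 all lie in the block of 246 peaks, and peaks covered 73.6% to 88.2% of them.

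Peak widths in the domain ran from 213 to 5434 bp, with a median of 384 bp (95% interval 367 to 396 by ranks, quartiles 259 to 608). Outside the domain the median was 283 bp (280 to 287). These intervals treat peaks as independent, which neighbours are not, and cover sampling of peaks only. The floor of 213 bp is the narrowest width anywhere in the list. Exactly that width was found in 74 members (5.03%), where the share over the list was 9.23%. In the right edge of the domain it was 14 of 71 peaks (19.7%) and in the core 40 of 990 (4.04%).

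Wide peaks were most frequent in the last 2 blocks of the core. In all, 116 members (7.89%) were at least 1 kb wide, where the share over the whole list was 4.22%. They made up 25.4% of the covered sequence of the domain, and 100 of the 116 lay in the core. Of these 100, the blocks of 246 and 125 peaks held 52 and 16, and the block of 619 held 32. The share in the block of 619 (5.17%) was below that of the whole domain. The block of 184 peaks held 12 (6.52%), the middle and the left edge 2 each, and the right edge none. The domain held 27.5% of all peaks of that width in the list.

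The 4 widest members stood nearly side by side. They measured 5434 bp (21758870 to 21764303), 5099 bp (21765841 to 21770939), 4783 bp (21776763 to 21781545) and 4662 bp (21782823 to 21787484). All 4 belong to the block of 246 peaks. The fifth, of 3955 bp (21878130 to 21882084), lies in the same block. Its fold was 5.66, with a control pileup of 3.77, while the 4 widest had control pileups of 16.3 to 34.3.

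**Figure D3:**
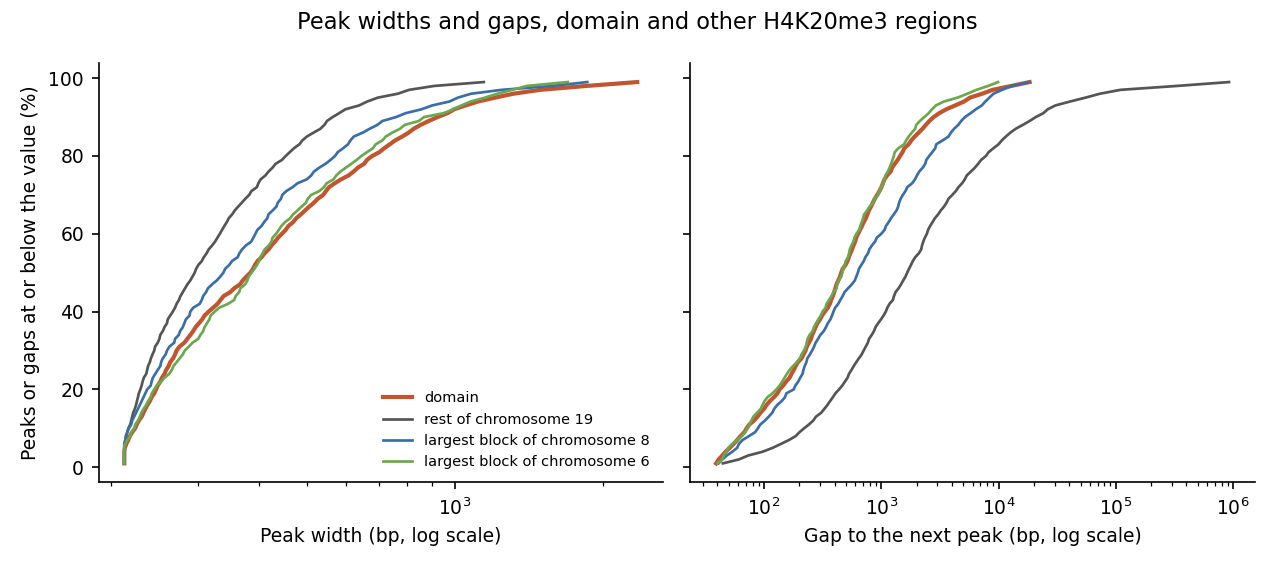
Cumulative percent of peaks by width (left) and of gaps by length (right), on log scales in bp, in the domain, the rest of chromosome 19 and the largest blocks of chromosomes 8 and 6. Half-way values (50% on the vertical axis) in the domain are 384 bp for width and 455 bp for gaps, close to the block of chromosome 6 and far from the rest of chromosome 19.

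The largest runs of H4K20me3 peaks on other chromosomes served for comparison. These were 668 peaks on chromosome 8 (41516457 to 43091796) and 613 on chromosome 6 (45285768 to 46302362). With 1 library, no test of a difference between regions was made, and the values stand side by side. These blocks hold no gap of 50 kb, while the domain does, so its larger run of 1177 peaks is the counterpart by the same rule. As a whole, the domain resembled the block of chromosome 6 in median width (384 and 386 bp), median gap (455 and 464.5 bp), share of peaks at least 1 kb wide (7.89% and 7.99%) and median fold (4.28 and 4.27). In coverage the block of chromosome 6 (29.0%) lay between the whole domain (25.8%) and its larger run (32.1%), and its 603.0 peaks per Mb were near the 601.8 of that run. The median width of the larger run was 389 bp, its median gap 400 bp and its median fold 4.36. The block of chromosome 6 was less divided: 512 of its 613 peaks lay in 1 run without a gap of 10 kb, against 619 of the 1177. Gaps of at least 10 kb split it into 7 runs and the larger run of the domain into 22. The block of chromosome 8 had narrower peaks (338.5 bp), longer gaps (631 bp), a median fold of 4.03 and 18.7% covered. The rest of chromosome 19 had a median width of 296 bp, 1.38% of peaks at least 1 kb wide and a median fold of 3.82. Peaks of exactly 213 bp were 6.04% of the block of chromosome 6 and 6.44% of that of chromosome 8, against 5.03% in the domain. The longest run without a 10 kb gap held 619 peaks in the domain, 512 in the block of chromosome 6 and 186 in that of chromosome 8.

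Fold over control in these lists is the authors' value from the peak caller, taken at the summit of each peak. In the domain its median was 4.28 (95% interval by ranks 4.22 to 4.37) and its range 2.19 to 9.29. As for widths, this interval treats peaks as independent and covers sampling of peaks only. A -log10 q of at least 5 was reached by 881 members (59.9%), where the share over the list was 44.1%. In the blocks of chromosomes 6 and 8 the share was 58.1% and 51.0%. By zone, the median fold was 4.01 in the left edge, 4.22 in the block of 184 peaks, 4.20 in the middle, 4.44 in the core and 3.78 in the right edge. The middle and the block of 184 peaks had nearly equal median folds, at unequal pileups. The median ChIP pileup was 20 fragments in the middle and 23 in the block of 184, and the median control pileup 3.59 and 4.39. A -log10 q of at least 5 was reached by 48.4% of the peaks in the middle and 63.6% in the block of 184. In the right edge 15 of 71 peaks (21.1%) reached the -log10 q of 5, against 639 of 990 (64.5%) in the core.

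Median fold rose with the width class of members. The median fold was 3.90 for the 537 members under 300 bp, 4.44 for the 438 of 300 to under 500 bp, 4.78 for the 380 of 500 to under 1000 bp, 5.19 for the 92 of 1000 to under 2000 bp and 5.30 for the 24 of at least 2000 bp. The median control pileup rose as well, from 3.59 in the narrowest class to 6.18 in the widest. Single wide peaks departed from the trend: the 4 widest members had folds of 4.68, 5.82, 3.85 and 3.00. Spearman's rho between width and fold was 0.48 over the 1471 members, which share a library and a caller. Width and fold of a peak are read from the same ChIP signal, so they are not independent measures. Outside the domain the median folds of the same width classes were 3.65, 3.98, 4.27, 4.43 and 3.83.

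The depth behind the folds could be read from the list itself. Fold and p together give the ChIP pileup, the number of fragments over the summit, and the control pileup, the number the caller expected there. In the domain the median ChIP pileup was 21 fragments (quartiles 18 to 25, range 13 to 177). The median control pileup was 3.91, and 551 members (37.5%, against 24.0% over the list) were at the lowest control value of the list, 3.50. In the blocks of chromosomes 6 and 8, 45.7% and 32.3% of peaks were at it. At that lowest value each added fragment raises the fold by 0.222, so small differences in fold between members are differences of 1 or a few fragments.

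The 5 highest folds illustrate this precision. The first was 9.29 (21749645 to 21749996), from 58 fragments against a control of 5.35. Its 95% Poisson interval for the fragments alone corresponds to folds of 7.09 to 11.97. The second, 8.66 (20863688 to 20864050), came from 38 fragments and has an interval of 6.19 to 11.8. The others were 7.996 (21471815 to 21472426, 35 fragments), 7.77 (21660631 to 21661390, 34 fragments) and 7.39 (20855628 to 20855978, 34 fragments). The interval of the fifth reaches from 5.18 to 10.2, so the order of these 5 is within counting error. The second and the fifth lie in the sub-block of 44 peaks in the middle, and the other 3 in the core. They were 351 to 760 bp wide, and none is among the 5 widest.

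**Figure D4:**
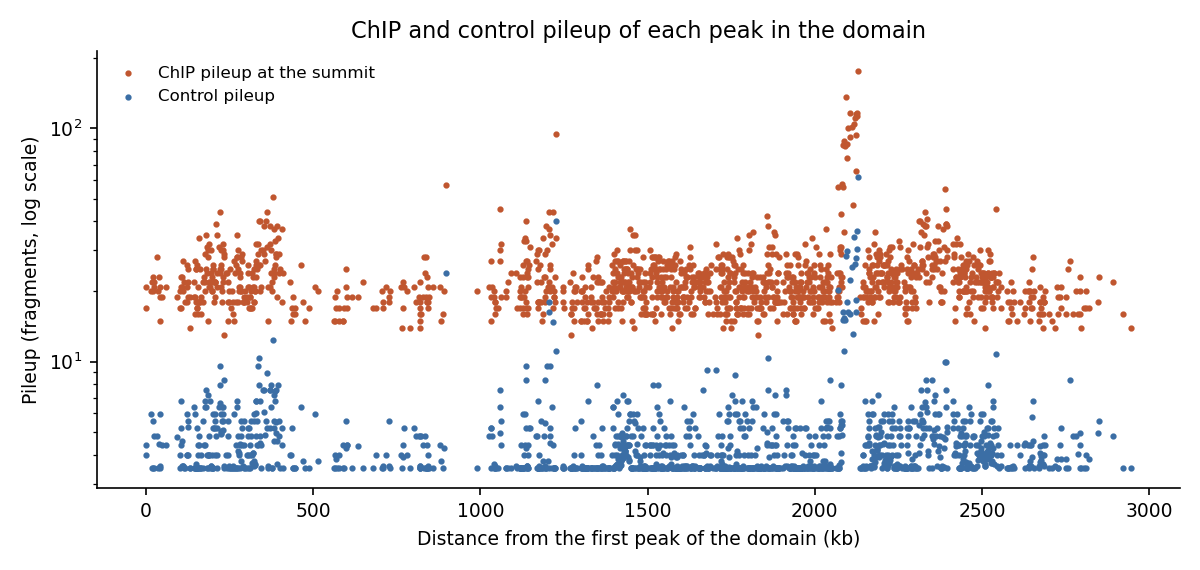
ChIP pileup at the summit and control pileup of each of the 1471 peaks, in fragments on a log scale, against distance from the first peak in kb. Near 2100 kb both rise together, to 177 fragments of ChIP and 62.2 of control, while most of the core shows control near its floor of 3.50.

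Control coverage was low over most of the domain and deep in a few places. A control pileup of more than 2 times the lowest (over 7.00) was found at 81 members (5.51%), where the share over the list was 14.3%. The share was 4.08% in the block of chromosome 6 and 9.88% in that of chromosome 8. Of the 81 in the domain, 32 lay in the block of 246 peaks, 19 in the block of 184, 15 in the block of 619 and 8 in the sub-block of 44 peaks. As a share of its peaks the sub-block of 44 stood highest among these 4. Its deep peaks had a median fold of 2.71 and control up to 40.3. The longest series of deep peaks in the domain ran for 61.0 kb from 21738414 to 21799420, with 23 such peaks among 38 members. Peaks covered 78.0% of this stretch, their median width was 691 bp, and 15 were at least 1 kb wide. The median ChIP pileup there was 57 fragments, the median control 15.1 and the median fold 4.16, similar to the fold of the domain as a whole. The peak with most fragments (21797417 to 21799420) had 177 against a control of 62.2, a fold of 2.82. The 4 widest members and the highest fold of the domain all lie in this stretch.

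Deep control therefore moved together with width in the block of 246 peaks. The 32 deep peaks there had a median width of 1183 bp. With them left out, the other 214 peaks of the block had a median width of 486 bp and covered 43.3% of its length in place of 59.3%. Of these 214 peaks, 34 (15.9%) were at least 1 kb wide. The same step left the block of 619 peaks at 382.5 bp and 37.9%, and the block of 125 at 430 bp and 49.3%. The block of 246 peaks still had the widest peaks of the 3 on this measure. Its coverage was then below that of the block of 125. The block lengths were kept whole, so sequence under the left-out peaks counts as uncovered. The fall in coverage and the change of order are therefore partly built in, and no order by coverage is drawn from them. The part of copy number, mappability or repeats in the deep control was not tested.

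No H3K27me3 peak lay in the domain, and none of the 709 H3K27me3 peaks of the series lay on chromosome 19. That chromosome spans 50.9 Mb of the 2658.8 Mb over all chromosomes. The absence therefore holds for the whole chromosome in the H3K27me3 list and is not particular to the domain. A count of 0 allows a share of up to 0.423% of that list. At the density of the H3K27me3 list over all chromosomes, 0.785 peaks would be counted in a length of 2.94 Mb, so an absence from the domain alone could not be detected at this number of peaks. That reasoning covers the domain only and does not extend to the much longer chromosome. Why the H3K27me3 list holds no peak anywhere on chromosome 19 was not tested.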

How the data were processed

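The members, limits and measures were chosen with earlier results of these data known. The submitters' processing notes name the aligner Bowtie (version 1.1.1) and the peak caller MACS2 (version 2.1.0.20140616). Parameters and the control used are not given in the sources used here. Per the labels' protocols, chromatin was fixed and sheared and total histone libraries served for normalization. The deposited H4K20me3 list is in narrow-peak layout and gives fold over control (a ratio), -log10 p, -log10 q and a score, which equals the whole part of 10 times -log10 q and was not used. The deposited H3K27me3 list is in broad-peak layout. The largest q in the H4K20me3 list was 0.0482. The genome build is that in the file names. Total read counts were not used here.

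Peaks at least 10 kb apart were split into sub-blocks, and windows of 50 kb start at the first peak. Peaks named in the text are the 5 of highest fold, the 5 widest, those beside the 5 longest gaps, those at both limits, and the ends of sub-blocks with at least 20 peaks. Stretches of joined peaks, zones and the stretch of deep control were added after their values were seen. ChIP and control pileups were solved from fold = (ChIP + 1) / (control + 1) and the Poisson upper tail; all 10000 fits gave -log10 p within 0.001 with a whole ChIP pileup. The solver and the splitting were tested on simulated data. The 95% intervals of medians are by ranks, treat peaks as independent and cover sampling of peaks only. The 95% Poisson intervals and the limit for a count of 0 (3 counts) cover counting error only. Overlap with H3K27me3 needed 1 bp. Python 3.11.15, numpy 2.4.6, scipy 1.17.1, pandas 2.3.3 and matplotlib 3.10.9 were used.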

Additional observations from a re-analysis of the deposited data

How the results depend on the processing

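Of 37 alternative values, 21 stayed within 1.5 times (counts, density, coverage, sub-blocks) or within the 95% interval of the median (width, gap, fold, control pileup), 16 moved beyond these limits and 0 reversed. With a -log10 q of at least 5 the domain held 881 peaks (299.2 per Mb) with a median width of 487 bp, a median gap of 751 bp and a median fold of 4.81. With folds of at least the median of the list these were 435 bp, 666.5 bp and 4.66. Both are fixed in direction by the selection. Joining peaks less than 1 kb apart left 416 peaks (141.3 per Mb), with a median width of 1051.5 bp, a median gap of 2074 bp and a median highest fold of 4.66. The larger run alone had 601.8 peaks per Mb and was covered to 32.1%. Splitting at 5 kb gave 92 sub-blocks and at 20 kb 13. The median control pileup was 4.21 at peaks at least 500 bp wide. The core kept the highest density and coverage of the 5 zones with a -log10 q of at least 5 (507.9 per Mb, 35.5%), with folds of at least the list median (591.4 per Mb, 36.7%) and with deep control left out (748.0 per Mb, 39.8%). The zones were cut at the largest runs of these same peaks, so this rank is largely fixed by how they were drawn. Zone lengths were kept whole when peaks were left out. The split of the 4 largest sub-blocks by control was chosen after seeing the data. Its values are counted among the 21, also the coverage of the block of 246 peaks, which fell from 59.3% to 43.3%. The intervals used as limits treat peaks as independent, so the tally is a description and no measure of robustness. No paired analysis was possible because each mark has 1 library.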

Other observations

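The summit of a peak lay in the middle of 3 equal parts of the peak in 795 of the 1471 members (54.0%), in the first part in 352 (23.9%) and in the last part in 324 (22.0%). Among the 116 members at least 1 kb wide the summits were spread more evenly, with 41, 37 and 38 in the first, middle and last part. The median distance between neighbouring summits was 1046.5 bp. Neighbouring members resembled each other little: over 1470 neighbouring pairs Spearman's rho was 0.14 for width and 0.09 for fold, in 1 library and with no replicate.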
